A study of Mus musculus with 9 samples.

Results

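The coagulation and fibrinolysis genes described here are F3, F5, F7, F10, F13a1, Thbs1, Plau, Plaur and Serpinb2, chosen by name as members of the clotting and fibrin-dissolving system. They are 9 of the 54059 genes in the deposited expression table, and all 9 are among the 11450 genes with a mean FPKM (fragments per kilobase of transcript, scaled to depth) of at least 1 over the 9 libraries. The study asked how loss or inhibition of the phosphatase SHP2 alters the response of macrophages to imiquimod (IMQ), a TLR7 agonist. RNA was sequenced from 9 libraries of adherent peritoneal macrophages, 3 in each of 3 groups. All cells came from C57BL/6 mice of 8 weeks by the labels (8 to 10 weeks in the methods) that had received 1 ml of starch broth into the peritoneum 3 days before lavage, and all were exposed to IMQ in culture for 4 h at 10 µg/ml. The wild-type group had intact SHP2 and no inhibitor. The M-Shp2-/- group (labelled SHP2lyz2-/-) carried floxed Shp2 and Lyz2-cre, a Cre that acts in monocytes, macrophages and granulocytes. The SHP099 group was wild type and received 10 µM of SHP099, an allosteric inhibitor that keeps SHP2 in its closed form, for 2 h before IMQ. Nothing in the sources used here says which mice gave which library, so p values measure only the spread between these libraries, which may in part be technical.

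Clotting starts when tissue factor, encoded by F3, binds factor VII and the pair activates factor X. Activated factor X with its cofactor, factor V, turns prothrombin into thrombin, which makes fibrin, and factor XIII crosslinks the fibrin. Urokinase (Plau), held at the cell surface by its receptor (Plaur) and inhibited by PAI-2 (Serpinb2), turns plasminogen into plasmin, which dissolves fibrin, and stimulated macrophages are a known source of tissue factor, urokinase and PAI-2.

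Ptpn11, the gene of SHP2, checks the labels. Its FPKM was 45.8, 44.0 and 40.0 in wild-type libraries 1, 2 and 3, 18.6, 17.8 and 18.9 in the M-Shp2-/- libraries, and 43.0, 42.1 and 39.6 in the SHP099 libraries. All 3 M-Shp2-/- libraries lay below all others, at 42.5% of the wild-type mean, and the SHP099 libraries overlapped the wild-type ones. The depth recovered from the FPKM ranged from 39841813 reads in SHP099 library 2 to 50979545 reads in wild-type library 2. The member with the fewest reads in any library was F3, with 164 in SHP099 library 2.

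The macrophage label was checked against marker lists. The 6 macrophage genes, led by Lyz2, summed to 9350 to 11900 FPKM in wild-type, 6830 to 7080 in M-Shp2-/- and 10900 to 12500 in SHP099 libraries. The lower M-Shp2-/- sum followed Lyz2, whose promoter drives Cre in these mice, with means of 8540 FPKM in wild-type and 5004 in M-Shp2-/- libraries (adjusted p = 0.388). Of the 6 genes, 4 had a negative log2 fold change against wild type, with a median of -0.44, and 0 were called. Mertk was also lower in every M-Shp2-/- than in every wild-type library (means of 3.87 and 8.94 FPKM, adjusted p = 0.454), and Cd68 had means of 1523 and 1377. Over all libraries Cd68 ranged from 1211 to 1740 FPKM, and Adgre1 from 172 to 349. Of the 8 genes of resident large peritoneal macrophages, led by Prg4, 5 had a mean FPKM of at least 1, and the sum was 11.1 to 33.3. Monocyte genes, led by Fn1, summed to 308 to 1060 FPKM, and neutrophil genes, led by S100a8, to 45.8 to 108.

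Marker genes of other cells that make clotting proteins were low, with the exception of fibroblast genes. Platelet genes, led by Itga2b and with Gp1bb at 0 in every library, summed to 0.247 to 0.783 FPKM. Among hepatocyte genes, Alb, Serpina1a and Ahsg were at 0 in every library, and the highest sum, led by Apoa1, was 0.104. Mesothelial genes, led by Wt1, summed to 1.98 to 11.4. T cell genes, led by Cd3g, summed to 0.821 to 5.99 FPKM in wild-type, 0.4 to 3.2 in M-Shp2-/- and 3.98 to 5.77 in SHP099 libraries, so every SHP099 library lay above every M-Shp2-/- library. Several other low sums differed by group. Mast cell genes, led by Kit, summed to 4.78 to 6.10 FPKM in wild-type, 1.60 to 3.19 in M-Shp2-/- and 0.564 to 0.970 in SHP099 libraries, and eosinophil genes, led by Siglecf and with Ear6 at 0, to 0.383 to 0.931, 0.280 to 0.727 and 0.0186 to 0.0368. Endothelial genes, led by Kdr and with Emcn at 0, summed to 4.33 to 5.32, 2.03 to 5.33 and 1.35 to 1.92 in the same order, and 4 B cell genes, led by Pax5, to 1.44 to 2.59, 2.0 to 10.1 and 0.693 to 1.12. For the 6 marker genes at 0, the level that 3 reads would give was 0.0287 to 0.0938 FPKM.

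Fibroblast genes set libraries of the same group apart. The 6 genes, led by Col1a1, summed to 63.8, 303 and 39.8 FPKM in the wild-type libraries, 135, 51.4 and 586 in the M-Shp2-/- libraries, and 361, 137 and 101 in the SHP099 libraries. M-Shp2-/- library 3, SHP099 library 1 and wild-type library 2 were therefore the highest of their groups, and no gene of the list was called in any comparison. M-Shp2-/- library 3 was also the least like its group, with a correlation of log2 values of 0.967 and 0.954 with libraries 1 and 2, which correlated at 0.992 with each other. It was at the upper or lower end of its group in 87.1% of the tested genes, beside 60.5% for library 2 and 52.3% for library 1, and wild-type library 3 was at an end of its group in 82.8%. In all 9 members libraries 2 and 3 were the ends of the M-Shp2-/- group, with library 3 highest in F3, F5, F13a1, Thbs1 and Serpinb2 and lowest in F7, F10, Plau and Plaur. In bulk samples like these, fewer cells of a type and less RNA per cell cannot be told apart.

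The levels of the 9 genes spanned a wide range, and FPKM, which is per length, allows them to be ordered. In wild-type macrophages F10 was the highest, at 774 ± 120 FPKM (SD, n = 3), rank 105 of all genes. Plaur followed at 570 ± 51.3, Serpinb2 at 442 ± 251, Thbs1 at 181 ± 74.3, F7 at 101 ± 23.9, Plau at 54.5 ± 16.6, F3 at 14.1 ± 3.87, F13a1 at 4.07 ± 0.923 and F5 at 1.40 ± 0.851 FPKM (SD, n = 3 each). The wild-type libraries of neighbours in this order overlapped for Plaur and Serpinb2 and for Thbs1 and F7, and were separate for the other neighbours. The median SD of log2(FPKM + 1) within groups over the 9 members was 0.377 in wild-type, 0.716 in M-Shp2-/- and 0.287 in SHP099 libraries, against 0.192, 0.180 and 0.116 over all tested genes. Plaur in wild-type libraries (0.133) was below that median and Plau in SHP099 libraries (0.116) at it.

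The plot of members by library shows these values for every gene.

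**Figure D1:**
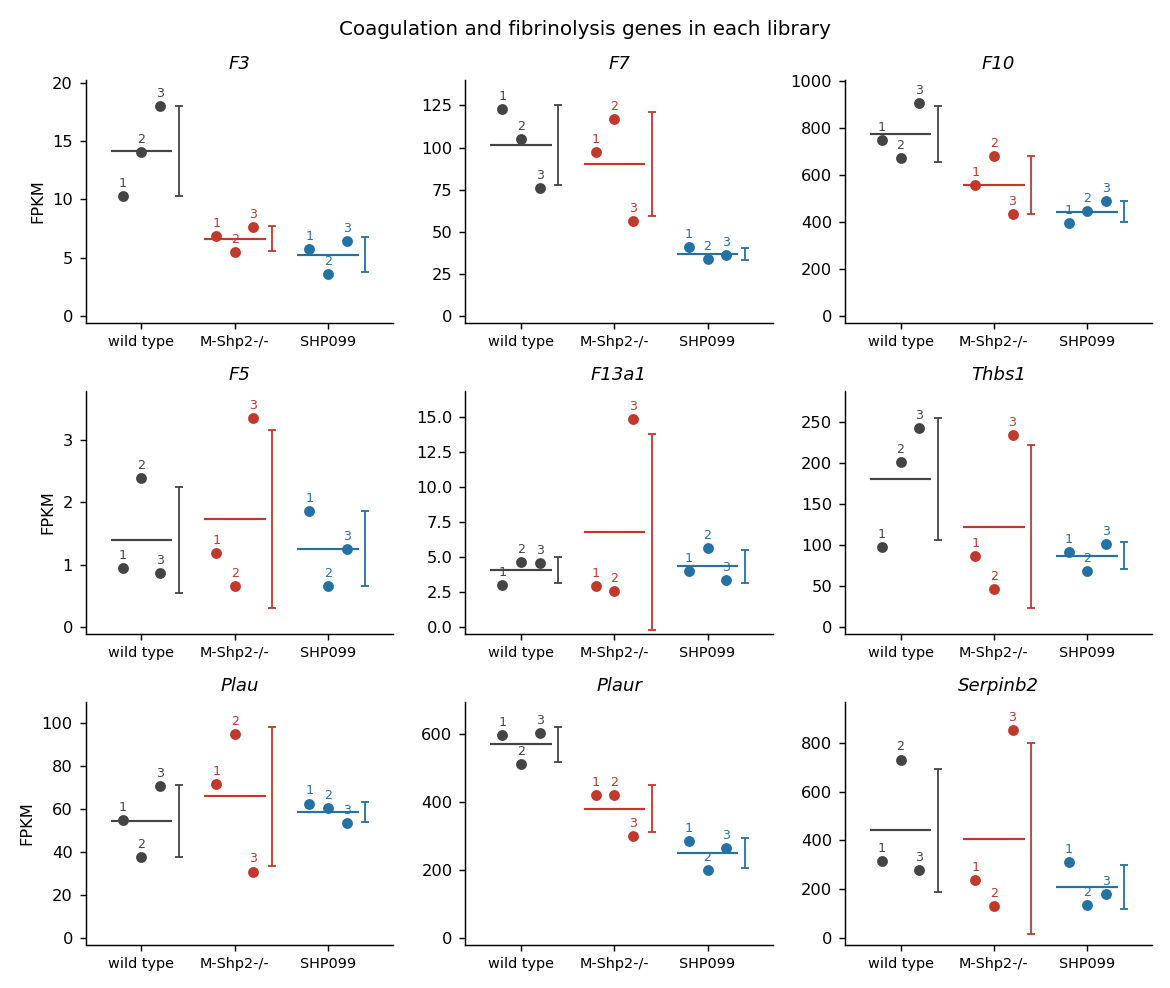
FPKM (linear axes) of the 9 genes in each library of the 3 groups; points are libraries with their replicate number, horizontal lines are group means and the bars beside them 1 SD (n = 3). The SHP099 libraries of F3, F7, F10 and Plaur lie below all wild-type libraries, and M-Shp2-/- library 3 stands at one end of its group in every panel.

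Differences were tested with limma on log2-transformed FPKM (1 added), and a gene was called at a Benjamini-Hochberg adjusted p of at most 0.05 over all 11450 genes. With SHP099, 4 of the 9 genes were called against wild type, F3, F7, F10 and Plaur, and all 4 were lower, where 6.96% of the tested genes were called in either direction and 2.41% were called lower. In the same 4 genes all SHP099 libraries lay below all wild-type libraries, as they did in 6.77% of the tested genes. The members were chosen with earlier results of these data known, so these shares are a description and not a test of the set. At the thresholds of the study's methods (adjusted p of at most 0.005 and absolute log2 fold change of at least 1), none of the 9 was called, against 0.166% of the tested genes. In M-Shp2-/- against wild type, 0 of the 9 genes were called with limma (3 of them, F3, Plaur and F10, had an unadjusted p under 0.05, as had 1204 of the tested genes), where limma called 0.0873% of the tested genes. With voom on recovered reads 0 of the 9 were called as well, and 9 of all genes. F3 and Plaur had all M-Shp2-/- libraries below all wild-type libraries, a pattern of 3.07% of the tested genes. In M-Shp2-/- against SHP099, 0 of the 9 were called with limma, where 0.0699% of the tested genes were called and 1437 had an unadjusted p under 0.05, among them F7 and Plaur. Here voom called 0 of the 9 and 14 of all genes.

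Both comparisons with wild type use the same 3 wild-type libraries, so they are not independent. With 3 libraries per group, the smallest two-sided p that exact permutation can reach is 0.1. The median log2 fold change over all tested genes was 0.15 in M-Shp2-/- and 0.13 in SHP099 against wild type, and median-of-ratios scaling moved both to about 0. The median over the 9 members was -0.42 and -0.96, in that order.

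**Figure D2:**
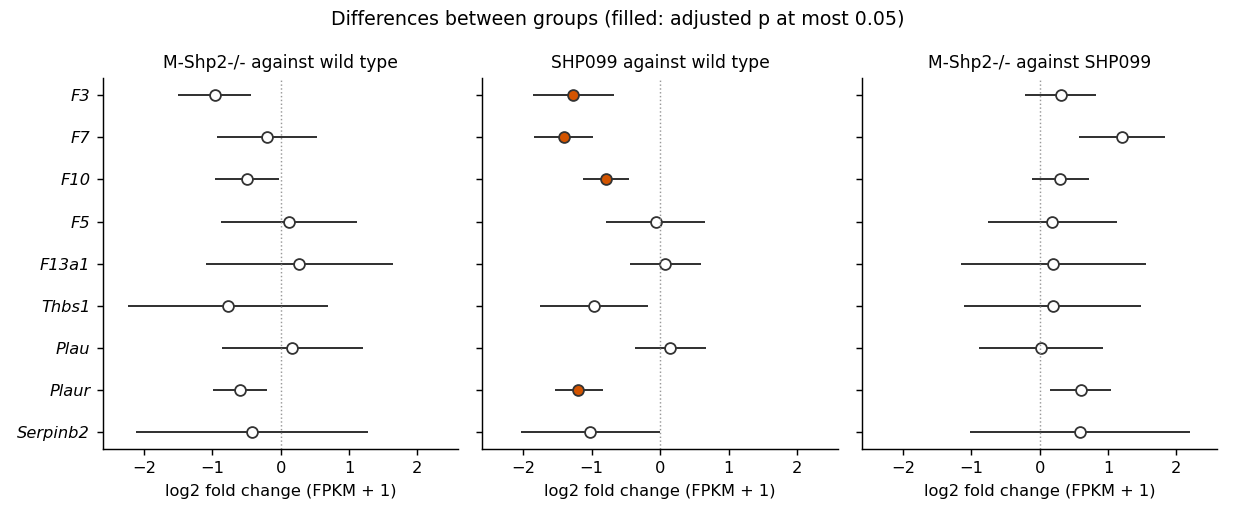
Log2 fold changes of FPKM + 1 (points) with 95% confidence intervals from limma (lines) for the 9 genes in the 3 comparisons; filled points have an adjusted p of at most 0.05. Only F3, F7, F10 and Plaur in SHP099 against wild type are filled, between -1.41 and -0.79.

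The upstream sequences of the 4 genes that fell with SHP099 are shown because these genes moved in the same comparison. RefSeq promoter entries (GRCm38.p6) were matched by symbol for 7 of the 9 genes, not for Plau and Thbs1. The 250 bases before the start are given 5′ to 3′ on the gene's own strand, the plus strand in all 4, at chr3:121723287-121723536 for F3, chr7:24462233-24462482 for Plaur, chr8:13025784-13026033 for F7 and chr8:13037058-13037307 for F10. Capitals mark matches, on either strand, to TGANTCA, an AP-1 motif, and to TGACCTT, a nuclear receptor half-site.
F3: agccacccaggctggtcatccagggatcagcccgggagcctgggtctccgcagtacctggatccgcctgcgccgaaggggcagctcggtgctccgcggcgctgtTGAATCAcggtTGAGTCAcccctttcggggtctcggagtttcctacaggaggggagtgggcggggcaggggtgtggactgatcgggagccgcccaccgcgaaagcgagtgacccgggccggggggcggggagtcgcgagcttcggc
Plaur: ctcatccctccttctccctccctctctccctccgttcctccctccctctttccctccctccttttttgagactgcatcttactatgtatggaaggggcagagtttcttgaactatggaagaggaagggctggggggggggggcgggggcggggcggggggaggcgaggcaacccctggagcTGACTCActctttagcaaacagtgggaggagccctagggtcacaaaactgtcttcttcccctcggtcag
F7: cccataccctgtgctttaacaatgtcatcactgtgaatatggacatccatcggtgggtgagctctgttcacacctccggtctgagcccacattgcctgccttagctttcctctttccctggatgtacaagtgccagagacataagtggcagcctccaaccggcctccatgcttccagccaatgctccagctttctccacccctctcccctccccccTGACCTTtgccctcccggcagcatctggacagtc
F10: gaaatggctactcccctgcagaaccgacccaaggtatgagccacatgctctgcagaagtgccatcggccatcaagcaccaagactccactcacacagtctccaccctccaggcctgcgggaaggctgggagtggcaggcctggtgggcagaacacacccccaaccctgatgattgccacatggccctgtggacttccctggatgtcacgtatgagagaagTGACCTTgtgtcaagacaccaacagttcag
TGANTCA was found in F3, with first bases 146 and 135 bases before the start, and in Plaur, 69 bases before it, and in 6.75% of the 32851 promoters of the table. Serpinb2 also held it, and F5, F7, F10 and F13a1 did not. TGACCTT was found in F7 and F10, 34 and 30 bases before their starts, in no other matched member, and in 4.08% of the promoters. GGGCGG, the GC box, was found at 3 positions in F3, at 3 in Plaur, where a pair of them share 1 base, and at 1 in F5, and in 32.7% of the promoters. GGANTTTCC, a form of the NF-κB motif, was found in F3 and at 1 of the F13a1 starts, and in 1.07% of the promoters. The motifs were chosen after the sequences were seen, and a match is a description of letters only.

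F3 (ENSMUSG00000028128, chr3:121723537-121735048, plus strand) encodes tissue factor, the membrane receptor that starts clotting. Its FPKM was 10.3, 14.0 and 18.0 in the wild-type libraries, 6.84, 5.46 and 7.62 in the M-Shp2-/- libraries and 5.76, 3.59 and 6.46 in the SHP099 libraries. Every library of both other groups lay below every wild-type library, while the M-Shp2-/- and SHP099 libraries overlapped. F3 fell with SHP099 to 37.3% of the wild-type mean, by 1.27 on the log2 scale (limma, adjusted p = 0.0326, standard error 0.25). That call was lost without wild-type library 2 (adjusted p = 0.0686) and without SHP099 library 1 (0.107), 2 (0.132) or 3 (0.0739), and without the filter on low FPKM (0.125). Over all genes the count of 797 called went to 399, 90, 47, 116 and 74 in these 5 fits. In M-Shp2-/- macrophages 47.0% of the wild-type mean remained, a log2 fold change of -0.96 that did not pass the adjustment (95% interval -1.48 to -0.44, adjusted p = 0.392). Between M-Shp2-/- and SHP099 the log2 fold change was 0.31 (95% interval -0.20 to 0.81, adjusted p = 0.573), and 0.10 without SHP099 library 2. The genes whose log2 values followed F3 most closely over the 9 libraries were Inhba (Pearson r = 0.974) and P2ry14 (0.969).

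F7 (ENSMUSG00000031443, chr8:13026034-13035809, plus strand) and F10 (ENSMUSG00000031444, chr8:13037308-13056676, plus strand) encode factors VII and X, vitamin K-dependent proteases made mainly in the liver. They are neighbours, with 1498 bases between them. The FPKM of F7 was 123, 105 and 75.9 in the wild-type libraries, 97.3, 117 and 56.2 in the M-Shp2-/- libraries and 40.9, 33.6 and 36.2 in the SHP099 libraries. The SHP099 libraries were low and close to each other, below every library of the other groups, and the M-Shp2-/- libraries overlapped the wild-type ones. F7 fell with SHP099 by 1.41 on the log2 scale (adjusted p = 0.0129, standard error 0.18), to 36.3% of the wild-type mean. That call was lost without SHP099 library 2 (adjusted p = 0.0781) or 3 (0.0547), and without the filter on low FPKM (0.0689). In M-Shp2-/- macrophages the log2 fold change of F7 was -0.20 (95% interval -0.92 to 0.51, adjusted p = 0.738), and 0.10 without M-Shp2-/- library 3 (adjusted p = 0.783).

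Set directly against SHP099, F7 in M-Shp2-/- macrophages had a log2 fold change of 1.21 (95% interval 0.59 to 1.82) that did not pass the adjustment (adjusted p = 0.230). All M-Shp2-/- libraries lay above all SHP099 libraries for F7 and Plaur, 2 of the 9 members, as in 7.9% of the tested genes. Without M-Shp2-/- library 3, F7 (adjusted p = 0.00167), Plaur (0.0174), F10 (0.0402) and Plau (0.0458) were called, 4 of the 9 members, but so were 19.9% of the tested genes. Over the alternatives the adjusted p of F7 in this comparison ranged from 0.00167 to 0.724. The genes that followed F7 most closely were Raet1d (r = 0.986, 9 libraries) and Arhgap10 (0.984).

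The FPKM of F10 was 747, 671 and 906 in the wild-type libraries, 556, 679 and 434 in the M-Shp2-/- libraries and 398, 447 and 489 in the SHP099 libraries. All SHP099 libraries lay below all wild-type libraries, and M-Shp2-/- library 2 exceeded wild-type library 2. F10 fell with SHP099 to 57.4% of the wild-type mean, by 0.79 on the log2 scale (adjusted p = 0.0236, standard error 0.13). That call was lost without wild-type library 1 (adjusted p = 0.0604) and without SHP099 library 1 (0.102), 2 (0.122) or 3 (0.0647), and without the filter on low FPKM (0.0949). In M-Shp2-/- macrophages F10 had a log2 fold change of -0.49 (95% interval -0.94 to -0.03, adjusted p = 0.465). Npc2 (r = 0.984, 9 libraries) and Xkr8 (0.971), a phosphatidylserine scramblase that is itself among the other pathway genes, followed F10 most closely.

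F5 (ENSMUSG00000026579, chr1:164151838-164220277, plus strand), the cofactor of activated factor X, and F13a1 (ENSMUSG00000039109, chr13:36867178-37050244, minus strand), the catalytic subunit of factor XIII and a known product of some macrophages, were low. F5 was at 0.952, 2.38 and 0.861 FPKM in the wild-type libraries, 1.19, 0.657 and 3.35 in the M-Shp2-/- libraries and 1.86, 0.659 and 1.25 in the SHP099 libraries. F13a1 was at 3.00, 4.64 and 4.57 in the wild-type libraries, 2.95, 2.55 and 14.9 in the M-Shp2-/- libraries and 4.02, 5.68 and 3.37 in the SHP099 libraries. The groups overlapped in both genes, and M-Shp2-/- library 3 was the highest of the 9 libraries in both. No difference between groups passed the test, with log2 fold changes of 0.12 for F5 (adjusted p = 0.890) and 0.28 for F13a1 (0.815) in M-Shp2-/- and of -0.07 (0.910) and 0.07 (0.857) with SHP099. Without M-Shp2-/- library 3 the values against wild type turned to -0.28 for F5 (adjusted p = 0.605) and -0.42 for F13a1 (0.289), and the F13a1 value with SHP099 turned to -0.05 with median-of-ratios scaling and -0.07 with quantile normalization. The genes closest to F5 were Cnn3 (r = 0.979, 9 libraries) and Rtn4rl2 (0.972), and to F13a1 Smndc1 (0.935) and Pam (0.933).

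Thbs1 (ENSMUSG00000040152, chr2:118111876-118127133, plus strand) encodes thrombospondin 1, an adhesive protein of platelet granules and macrophages that binds CD36 and CD47. Its FPKM was 98.1, 201 and 242 in the wild-type libraries, 86.5, 46.6 and 234 in the M-Shp2-/- libraries and 91.8, 68.6 and 101 in the SHP099 libraries. Wild-type libraries 2 and 3 and M-Shp2-/- library 3 stood above the other 6, and the groups overlapped, with SHP099 library 3 just above wild-type library 1. With SHP099 the mean was 48.3% of wild type and the log2 fold change -0.96, which did not pass the adjustment (95% interval -1.74 to -0.19, adjusted p = 0.118) but did without wild-type library 1 (-1.35, adjusted p = 0.0306, the lowest over the alternatives, which reached 0.347). In M-Shp2-/- macrophages it was -0.77 (95% interval -2.22 to 0.68, adjusted p = 0.570), with values from -1.39 without M-Shp2-/- library 3 to -0.24 without M-Shp2-/- library 2. Platelet genes were near 0 in all libraries, as given above. Pdgfrb (r = 0.958, 9 libraries) and Abtb2 (0.951) followed Thbs1 most closely.

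Plaur (ENSMUSG00000046223, chr7:24462484-24475968, plus strand), is the urokinase receptor. Its FPKM was 595, 511 and 604 in the wild-type libraries, 420, 422 and 300.5 in the M-Shp2-/- libraries and 284, 202 and 266 in the SHP099 libraries. The groups did not overlap in any comparison, with wild type highest and SHP099 lowest. Plaur fell with SHP099 to 44.0% of the wild-type mean, by 1.19 on the log2 scale (adjusted p = 0.0112, standard error 0.14), and was called with any single library left out, but not without the filter on low FPKM (adjusted p = 0.0645). In M-Shp2-/- macrophages 66.8% remained, a log2 fold change of -0.59 that did not pass the adjustment (95% interval -0.97 to -0.22, adjusted p = 0.448). Between M-Shp2-/- and SHP099 the log2 fold change was 0.60 (95% interval 0.17 to 1.03, adjusted p = 0.324). Ccnd2 (r = 0.993, 9 libraries) and Zfp658 (0.986) followed Plaur most closely.

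Plau (ENSMUSG00000021822, chr14:20836660-20843385, plus strand), the ligand of this receptor and activator of plasminogen, had no difference that passed the test. Its FPKM was 54.9, 37.6 and 70.8 in the wild-type libraries, 71.7, 94.7 and 31.0 in the M-Shp2-/- libraries and 62.5, 60.2 and 53.5 in the SHP099 libraries. The SHP099 libraries lay within the range of the wild-type ones, and the M-Shp2-/- libraries included both the highest and the lowest of all 9. The log2 fold change was 0.15 with SHP099 (95% interval -0.35 to 0.65, adjusted p = 0.701) and 0.17 in M-Shp2-/- macrophages (95% interval -0.84 to 1.19, adjusted p = 0.847). Without wild-type library 2 these values turned to -0.09 and -0.06, and without M-Shp2-/- library 2 the second was -0.16. Mir142hg (r = 0.947, 9 libraries) and Tent5c (0.940) followed Plau most closely.

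Serpinb2 (ENSMUSG00000062345, chr1:107511423-107535478, plus strand), the urokinase inhibitor PAI-2, differed more within groups than between them. Its FPKM was 314, 731 and 280 in the wild-type libraries, 237, 132 and 853 in the M-Shp2-/- libraries and 312, 137 and 180 in the SHP099 libraries. M-Shp2-/- library 3 and wild-type library 2 stood far above the others, with a ratio of 6.47 between the highest and the lowest M-Shp2-/- library. With SHP099 the log2 fold change was -1.02 (95% interval -2.02 to -0.02, adjusted p = 0.179) and in M-Shp2-/- macrophages -0.42 (95% interval -2.10 to 1.26, adjusted p = 0.770). Without wild-type library 2 these values were -0.59 (adjusted p = 0.300) and 0.01 (0.995), and without M-Shp2-/- library 2 the second was 0.17 (0.938). The genes closest to Serpinb2 were Il4ra (r = 0.975, 9 libraries) and Il33 (0.968).

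The 2 libraries highest in Serpinb2 were also among the 3 highest in the fibroblast genes. They were the 2 highest of all libraries in the summed monocyte, neutrophil and mesothelial genes. In that order, these sums were 1060, 104 and 9.27 FPKM in wild-type library 2 and 847, 108 and 11.4 in M-Shp2-/- library 3. Fn1 (829 and 719 FPKM) made up most of the 2 monocyte sums, and S100a8 (91.3 and 95.4) most of the neutrophil sums. The other genes of these lists did not all follow. Chil3 was highest in wild-type library 2 (221 FPKM), but Ly6c2 was at 3.62 and 3.53, against 17.6 in wild-type library 3. Mmp8 in M-Shp2-/- library 3 (6.13) was the lowest of its group. Plau was lowest in M-Shp2-/- library 3 and wild-type library 2, whereas Thbs1 was highest in wild-type library 3, which had the lowest sum of fibroblast genes. With the mean log2 value of 4 fibroblast genes as a covariate, Serpinb2 was called in SHP099 against wild type (log2 fold change -1.40, adjusted p = 0.0101), where 689 of all genes were called against 797 in the main fit. F7 was called in M-Shp2-/- against SHP099 at an unchanged log2 fold change of 1.21 (adjusted p = 0.0465), where 78 of all genes were called against 8. Whether other cells in the culture made these transcripts was not tested.

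**Figure D3:**
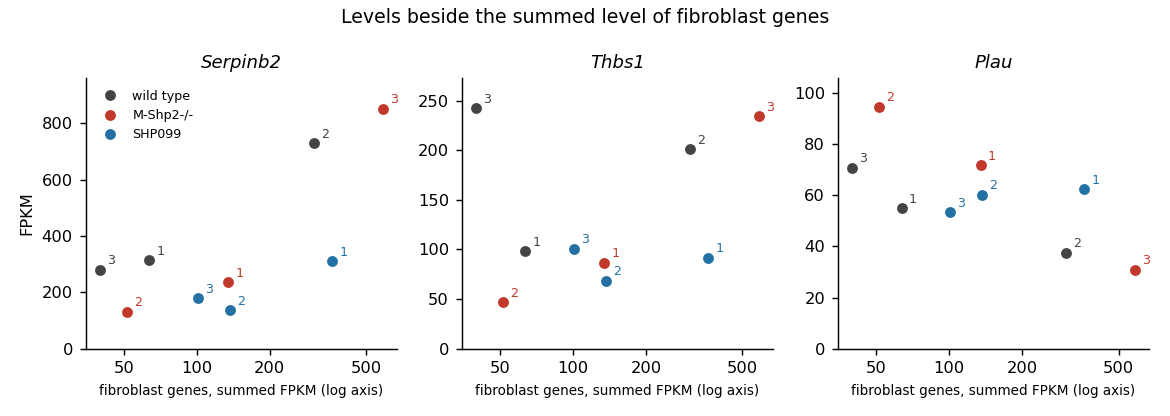
FPKM (linear axis) of Serpinb2, Thbs1 and Plau against the summed FPKM of 6 fibroblast genes (log axis); points are libraries with their replicate number, colored by group. M-Shp2-/- library 3 and wild-type library 2 are the highest in Serpinb2 and the lowest in Plau.

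The other genes of the system were taken from a list of 52 genes in 10 roles, of which 24 had a mean FPKM of at least 1. With SHP099, 4 of the 24 fell, 1 rose and 19 did not pass the test, where 2.41% of all tested genes were called lower and 4.55% higher, and the median log2 fold change was -0.13, beside 0.13 over all tested genes. In M-Shp2-/- against wild type and against SHP099, 0 of the 24 passed with limma, where 0.0873% and 0.0699% of all tested genes were called. The median log2 fold changes of the 24 were 0.09 and 0.25, against 0.15 and 0.02 over all tested genes. None of the 5 genes was called without any one of SHP099 libraries 1, 2 and 3 (adjusted p of at least 0.0541), in fits that called 90, 47 and 116 of all genes against 797.

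Substrates made by the liver were at or near 0. Fga, Fgb and Fgg, the chains of fibrinogen, Plg (plasminogen), Proc (protein C), F11, Kng1, F13b and Serpina10 were at 0 in all 9 libraries, where 3 reads would give 0.0154 to 0.0836 FPKM. F2, prothrombin, had a mean of 0.00108 FPKM, and F9, F8 and Klkb1, the highest of the contact and intrinsic pathway, had means of 0.134, 0.0191 and 0.0171. The thrombin receptor F2r had a mean of 0.473, and F2rl2 and F2rl1 had means of 0.0187 and 0.0134. Transcripts for factors VII and X were thus present without those of prothrombin and fibrinogen above the level of a few reads. Vwf, the carrier of factor VIII and a product of endothelium and platelets, was at 24.0 to 50.3 FPKM, and did not pass the test (log2 fold change 0.11 with SHP099, adjusted p = 0.810). The summed endothelial and platelet marker genes reached at most 5.33 and 0.783 FPKM, and which cells made the Vwf RNA was not tested.

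Of the 12 genes in the list of anticoagulants and Gas6, 5 were tested, and only Gas6 rose with SHP099. Gas6, a vitamin K-dependent ligand of TAM receptors that resembles protein S but is not known as an anticoagulant, was at 5.67, 6.41 and 7.36 FPKM in the wild-type, 5.72, 4.63 and 15.6 in the M-Shp2-/- and 10.8, 13.6 and 10.3 in the SHP099 libraries. The SHP099 libraries lay above all wild-type libraries (log2 fold change 0.75, adjusted p = 0.0325), and M-Shp2-/- library 3 was the highest of all. Gas6 was called in 8 of 18 alternatives, among them 1 of the 6 fits without a library, with an adjusted p of 0.0216 to 0.222. Median-of-ratios scaling was among those that lost the call (0.62, adjusted p = 0.0798). Procr, the protein C receptor, was the most abundant, at 78.9 to 113 FPKM, and Pros1 (protein S) was at 13.2 to 23.3, with log2 fold changes with SHP099 of 0.20 (adjusted p = 0.309) and -0.25 (0.433).

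Among plasminogen receptors, Anxa2 and S100a10, which form 1 complex at the cell surface, both fell with SHP099, and Eno1 and Plgrkt did not pass the test. Anxa2 was at 483, 468 and 366 FPKM in the wild-type, 384, 406 and 286 in the M-Shp2-/- and 265, 232 and 200 in the SHP099 libraries. S100a10 was at 205, 246 and 172 in the wild-type, 205, 187 and 152 in the M-Shp2-/- and 144, 136 and 130 in the SHP099 libraries. In both genes every SHP099 library lay below every wild-type and every M-Shp2-/- library, and the M-Shp2-/- libraries overlapped the wild-type ones. The log2 fold change with SHP099 was -0.92 for Anxa2 (adjusted p = 0.0209, 0.00824 to 0.110 over the alternatives) and -0.59 for S100a10 (0.0472, 0.0149 to 0.181). Of 18 alternatives, 13 called Anxa2 and only 7 called S100a10. Eno1, whose RNA is that of a glycolytic enzyme, was at 298 to 532 FPKM (log2 fold change 0.07, adjusted p = 0.874). Among the other regulators of fibrinolysis, Plat, the tissue-type activator, was at 0.540 to 3.98 FPKM, and the inhibitors Serpine2, Serpinf2 and Cpb2 had means of 0.436, 0.0966 and 0.0176.

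Among 7 receptors and partners of the urokinase receptor and thrombospondin 1, 2 fell with SHP099 and 5 did not pass the test. Itgav, the αV integrin chain, was at 43.6, 57.9 and 40.4 FPKM in the wild-type, 33.7, 29.9 and 31.4 in the M-Shp2-/- and 27.3, 21.3 and 23.4 in the SHP099 libraries. Its groups were in separate ranges in all comparisons, with a log2 fold change of -0.94 with SHP099 (adjusted p = 0.0228, 0.00673 to 0.121 over the alternatives) and -0.55 in M-Shp2-/- macrophages (adjusted p = 0.448). Cd36, a thrombospondin receptor, was at 319, 233 and 198 FPKM in the wild-type, 265, 299.5 and 264 in the M-Shp2-/- and 156, 146 and 126 in the SHP099 libraries. The M-Shp2-/- libraries of Cd36 lay within the wild-type range and the SHP099 libraries below it, with log2 fold changes of 0.17 (adjusted p = 0.651) and -0.79 (0.0454, 0.0204 to 0.170 over the alternatives), and M-Shp2-/- against SHP099 gave 0.96 (adjusted p = 0.0555, 0.00353 to 0.310 over the alternatives, called in 5 of 18). Itgb2 and Lrp1, the most abundant of the list, had means of 1096 and 642 FPKM and log2 fold changes with SHP099 of -0.14 (adjusted p = 0.533) and -0.41 (0.152).

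Of the genes for gamma-carboxylation and export of clotting factors 4 of 5 were tested, as were 2 scramblases that expose phosphatidylserine, the surface on which factors VII, X and V assemble, and none of these 6 passed. The carboxylase gene itself, Ggcx, had a mean of 0.341 FPKM and was not tested. Mcfd2, Lman1 and Vkorc1l1 had means of 196, 58.4 and 15.2 FPKM, and log2 fold changes with SHP099 of 0.47 (adjusted p = 0.132), -0.07 (0.831) and -0.18 (0.494). Xkr8 was at 30.1, 29.4 and 37.2 FPKM in the wild-type, 24.5, 27.1 and 20.6 in the M-Shp2-/- and 20.2, 20.5 and 25.1 in the SHP099 libraries, with all libraries of both other groups below the wild-type ones and adjusted p values of 0.465 and 0.0547. Ano6 had a mean of 43.2 FPKM and a log2 fold change with SHP099 of -0.14 (adjusted p = 0.426).

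**Figure D4:**
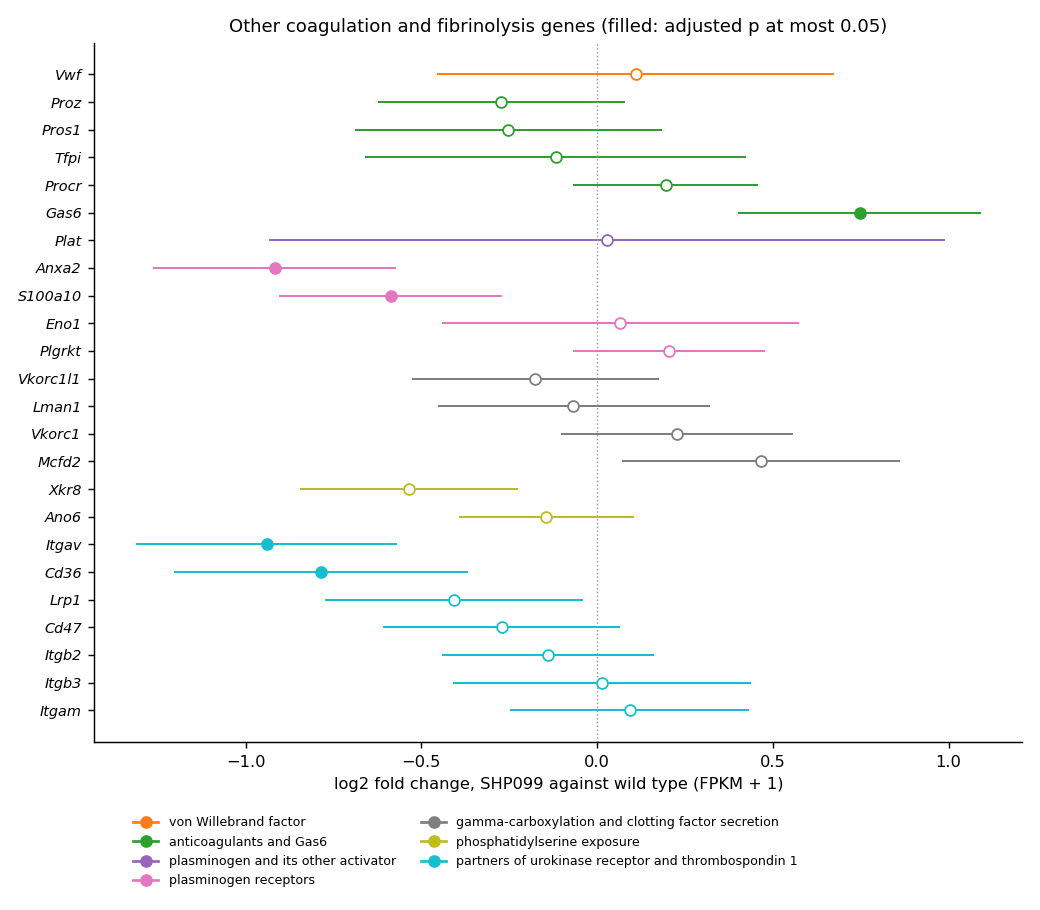
Log2 fold changes of FPKM + 1 in SHP099 against wild type (points) with 95% confidence intervals from limma (lines) for the 24 other coagulation and fibrinolysis genes tested, colored by role; filled points have an adjusted p of at most 0.05. Anxa2, S100a10, Itgav and Cd36 are filled below 0 and Gas6 above 0, from -0.94 to 0.75.

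Some marker genes were also called with SHP099, beside the 4 members that fell, where 6.96% of all tested genes were called in either direction. Csf1r was higher (log2 fold change 1.38, adjusted p = 0.0222), and Chil3 (-1.32, 0.0322) and Kdr (-1.08, 0.0406) were lower. Each was the only called gene of its list, and no tested gene of the other marker lists was called. In the macrophage list, which holds Csf1r, 4 of the 6 genes had a negative log2 fold change, with a median of -0.23. In the monocyte list, which holds Chil3, 3 of the 4 tested genes had a negative value, and Fn1 was at 0.25. Kdr was the only tested gene of the endothelial list. The summed mast cell, eosinophil, endothelial and B cell genes, given above, were lower in every SHP099 than in every wild-type library, and Kit itself did not pass the test (adjusted p = 0.123). The part of changes in cell make-up in the results on F3, F7, F10 and Plaur was not tested.

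Exons of some of these genes overlap other genes, and the counting strand is not stated in the sources used here. F5, F13a1 and Thbs1 overlap Gm16548, Gm30489 and Gm29233 on the opposite strand, which had mean levels of 0.00213, 0 and 0 FPKM, and Serpinb2 overlaps Serpinb10 on its own strand, at 0.0199 FPKM. Reads of Anxa2, Gas6, Itgav, Ano6, Csf1r, Fn1, Pax5 and Prg4 cannot be told apart from those of opposite-strand genes by the sources used here. The values of Itgam, Vkorc1 and Klkb1, which share exons with genes on their own strand, are uncertain. The values of 0 for Gp1bb, which shares exons on its own strand, and for Plg, Fgg and Ahsg, which share exons on the opposite strand, may reflect reads left out as ambiguous.

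With 3 libraries per group, a p that misses the threshold does not show that a gene was unchanged, and the calls on F3, F7 and F10 were lost in some fits with a library left out. RNA levels give neither protein nor clotting activity, cells were sampled at 1 time after IMQ and without an untreated group, and SHP099 was tested at 1 dose.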

How the data were processed

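Per the submitters' processing notes and the study's methods, bases were called with CASAVA 1.8, paired-end reads were aligned with HISAT2 2.0.4 and counted per gene with HTSeq 0.9.1. The authors deposited the values as FPKM, 1 column per library; the conversion tool, genome build, annotation and counting strand are not given in the sources used here. A table of assembled gene spans was not used. FPKM times mean transcript length (GENCODE M21, GRCm38) fell within 0.05 of whole reads in 96.3% to 96.7% of values of up to 50 reads, which gave the depth. Floors of 3 reads cover counting error only. Genes whose mean FPKM reached 1 were tested as log2(FPKM + 1), a scale that understates the change of low genes, with limma 3.58.1 (trend, two-sided, R 4.3.3) on the 6 libraries compared, checked on simulated data. The study's DESeq test was not used here. The members, lists and tests were chosen with earlier results of these data known. Named genes are the members, Ptpn11, pathway genes that were called or are among the 3 most abundant of a role, the 2 genes with the highest Pearson r with each member, and, of each marker list, the most abundant gene and those at 0; Adgre1, Cd68 and other genes outside this rule were chosen after their values were seen. Alternatives were pseudocounts of 0.1 and 5, no filter, a minimum mean FPKM of 5, equal-sum, median-of-ratios and quantile scaling, no trend, a joint fit of the 9 libraries, a block for replicate number, voom on recovered reads, a fibroblast score as covariate, the study's thresholds, each library left out and, chosen after seeing the data, M-Shp2-/- library 3 and wild-type library 2 left out together. Tables were made with pandas 2.3.3 and numpy 2.4.6, and plots with matplotlib 3.10.9, all under Python 3.11.15. Of the listed genes, 2 are not reported here, and their values are in no count or plot of the lists.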

Additional observations from a re-analysis of the deposited data

How the results depend on the processing

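With SHP099 against wild type, the count of 4 members called was 4 or 5 under every alternative except no filter on low FPKM (0; 74 of all genes called), the study's thresholds (0; 19 of all genes) and single libraries left out (1 to 4); all 9 libraries in one fit and voom also gave 4. In M-Shp2-/- against wild type it was 0 throughout. In M-Shp2-/- against SHP099 it was 0, 1 with the fibroblast score as covariate, and 0 to 4 with a library left out. All-gene counts of 10, 797 and 8 ranged over 1 to 12, 19 to 1273 and 0 to 2277. Whether replicate numbers pair the libraries is not known. Correlations between groups were -0.43 to 0.49 for the same number and -0.63 to 0.54 for different numbers. With the replicate block the counts of members were 0, 4 and 0, and of all genes 2, 591 and 0. Values whose sign turned were all of differences not called in the main fit, and the cause was not tested. For F5 in M-Shp2-/- against wild type, quantile normalization gave -0.0324 and the fibroblast covariate -0.147, and for F13a1 the covariate gave -0.0252. For F13a1 with SHP099, median-of-ratios scaling gave -0.0457 and quantile normalization -0.0722. With libraries left out, the log2 fold changes in M-Shp2-/- against wild type ranged from -0.276 to 0.420 (F5), -0.422 to 0.141 (F7), -0.420 to 0.661 (F13a1), -0.157 to 0.635 (Plau) and -1.18 to 0.166 (Serpinb2). With SHP099 they ranged from -0.255 to 0.208 (F5), -0.0967 to 0.209 (F13a1) and -0.0886 to 0.359 (Plau). In M-Shp2-/- against SHP099 they ranged from -0.209 to 0.487 (F5), -0.494 to 0.587 (F13a1), -0.306 to 0.485 (Plau), -0.157 to 1.18 (Serpinb2) and -0.430 to 0.722 (Thbs1).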
